A study of Mus musculus with 8 samples.

Results

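Hematopoietic progenitors of the granulocyte and monocyte lines are steered by a small set of growth factor receptors and transcription factors, and 9 of their genes are described here. They are the receptor genes Csf1r, Csf3r, Csf2ra and Csf2rb and the transcription factor genes Cebpa, Cebpe, Spi1, Gfi1 and Irf8. They were taken by symbol from a comparison of 14268 rows, and all 9 had a row, Spi1 under its older symbol Sfpi1. None of the 9 had more than 1 row.

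The cells came from E14.5 mouse fetal liver, from embryos of Flt3-Cre mice mated with mTmG reporter mice. That all embryos behind both fractions carried the same Cre and reporter alleles was not checked here. In the mTmG reporter, Cre recombination permanently replaces the red protein Tomato by the green protein GFP, so that GFP records past Flt3-Cre activity and not present Flt3 expression. Lineage-negative, Kit+, Sca1+ and CD150+ cells were sorted into a GFP+ fraction with 4 libraries and a Tomato+ fraction with 4 libraries. Whether the libraries came from separate embryos, litters or sorts is not stated in the labels, which also do not name the lineage antibodies. The data used give the mean normalized count of each fraction and no value for a single library. The spread between libraries and any overlap of the fractions could therefore not be seen, and the depth per library is unknown.

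Csf1r encodes the receptor for macrophage colony-stimulating factor, a tyrosine kinase related to Kit and Flt3, and it marks the monocyte and macrophage line. Csf3r encodes the receptor for granulocyte colony-stimulating factor. Csf2ra and Csf2rb encode the alpha chain and the signalling beta chain of the receptor for granulocyte-macrophage colony-stimulating factor. Among the factors, PU.1 (encoded by Spi1) and C/EBP alpha (Cebpa) open the myeloid programme, and PU.1 also acts in lymphoid cells. IRF8 favours monocyte and dendritic cell fates, whereas the zinc finger repressor GFI1 favours the granulocyte fate and is also needed in stem cells and lymphoid cells. C/EBP epsilon (Cebpe) acts late, when neutrophils make their secondary granules.

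Of the 9 genes, 1 rose and 1 fell in GFP+ cells. Csf1r was 2.34-fold higher and Gfi1 1.68-fold lower in the GFP+ than in the Tomato+ fraction, per the authors' deposited table. The other receptor genes had log2 values between -0.20 and -0.08, per the authors' deposited table. Spi1, Cebpa and Irf8 had log2 values between 0.30 and 0.45 without passing the threshold, per the authors' deposited table. A gene was counted as changed where the authors' adjusted p was under 0.05. Of all rows 7.49% passed, 4.86% as higher and 2.64% as lower in GFP+. The 9 genes had a median log2 value of -0.08, against 0.01 for all rows, with 4 genes above 0 and 5 below.

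**Figure D1:**
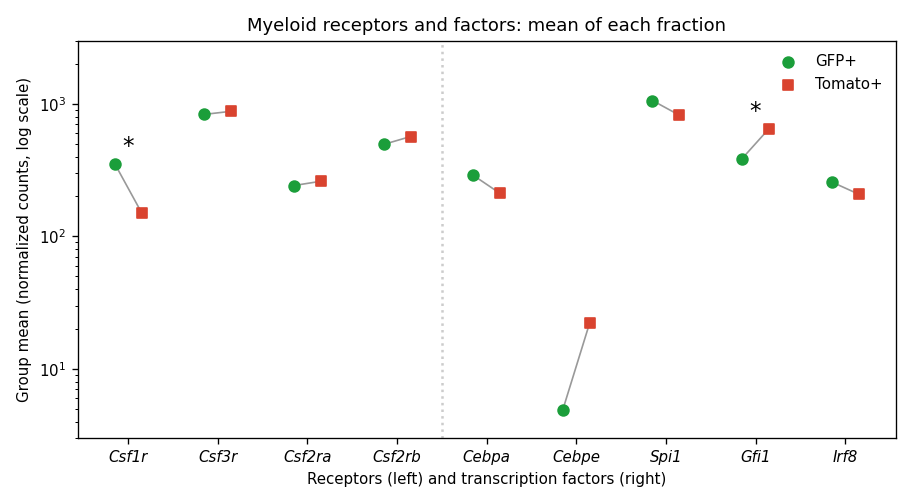
Mean normalized count of each of the 9 genes (vertical log axis) in the GFP+ fraction (circles, 4 libraries) and the Tomato+ fraction (squares, 4 libraries), from the authors' group means, with an asterisk where the authors' adjusted p was under 0.05. Csf1r is higher and Gfi1 lower in GFP+, Cebpe lies far below the others in both fractions, and no error bars are drawn because only group means are given.

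Among the receptor genes, Csf1r averaged 353 in the GFP+ and 150 in the Tomato+ fraction, in normalized counts per the authors' deposited table. The GFP+ level was more than double the Tomato+ level, and this was the only receptor gene of the 4 that passed. The difference on the log2 scale was 1.23, with an adjusted p of 3.87e-06, per the authors' deposited table. By p-value Csf1r ranked 190 among the 14268 rows. In the GENCODE annotation Csf1r overlaps Hmgxb3 on the opposite strand, and the counting is not stated to use strand. Hmgxb3 averaged 446 in the GFP+ and 471 in the Tomato+ fraction, a log2 value of -0.08 per the authors' deposited table (adjusted p = 0.976).

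Csf3r averaged 833 in the GFP+ and 879 in the Tomato+ fraction, a log2 value of -0.08 with an adjusted p of 0.943 per the authors' deposited table. Csf2ra averaged 242 in the GFP+ and 261 in the Tomato+ fraction, a log2 value of -0.11 with an adjusted p of 1 per the authors' deposited table. Csf2rb averaged 494 in the GFP+ and 567 in the Tomato+ fraction, a log2 value of -0.20 with an adjusted p of 0.756 per the authors' deposited table. In these 3 genes the GFP+ mean lay at 94.7%, 92.8% and 87.3% of the Tomato+ mean. No interval of these differences can be given from group means, so these values do not show that the genes were equal.

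For the receptor for granulocyte-macrophage colony-stimulating factor, the proportion of both chains was read from the group means, of which that of Csf2rb is uncertain for the reason given below. The Csf2ra mean was 0.490 of the Csf2rb mean in GFP+ and 0.460 in Tomato+. The Csf1r mean was 0.424 of the Csf3r mean in GFP+ and 0.171 in Tomato+, a difference of 1.31 on the log2 scale that no scaling of the fractions can alter. Neither of these differences between genes was tested.

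Csf2rb has a close mouse relative, Csf2rb2, which encodes a beta chain used by the interleukin-3 receptor. Csf2rb2 averaged 99.8 in the GFP+ and 165 in the Tomato+ fraction, a log2 value of -0.73 with an adjusted p of 0.138 per the authors' deposited table. Of the 5219 different 50-base stretches in the GENCODE coding transcripts of Csf2rb, 17.1% also occur in Csf2rb2, so reads could be split between the pair and both values are uncertain. Csf3r transcripts share 11.1% of such stretches with other genes. Csf1r, Csf2ra and the 5 factor genes share 0.

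PU.1 is a known activator of the Csf3r and Csf2ra promoters, so the bases upstream of both starts are shown to set a factor gene beside receptor genes that it acts on. Capitals mark the letters GAGGAA, the core bound by PU.1, searched on both strands. Both sequences are from RefSeq on build GRCm38.p6, written 5′ to 3′ along the gene, with the last base next to the transcription start.

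Csf3r, chr4:126024409-126024658, plus strand: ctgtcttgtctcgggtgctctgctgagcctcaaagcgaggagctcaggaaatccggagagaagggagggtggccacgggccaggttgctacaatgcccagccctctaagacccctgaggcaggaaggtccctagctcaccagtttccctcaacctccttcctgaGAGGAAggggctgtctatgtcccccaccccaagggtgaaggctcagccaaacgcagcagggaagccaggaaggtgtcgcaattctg
Csf2ra, chr19:61228419-61228668, minus strand: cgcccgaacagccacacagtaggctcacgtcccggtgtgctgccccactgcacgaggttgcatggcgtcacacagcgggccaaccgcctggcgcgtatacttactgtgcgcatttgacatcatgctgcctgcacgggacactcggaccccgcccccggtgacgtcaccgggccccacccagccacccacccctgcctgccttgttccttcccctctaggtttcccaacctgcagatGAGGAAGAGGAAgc

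The Csf3r window holds 1 match, whose first base lies 86 bases upstream of the start. The Csf2ra window holds 2 adjoining matches, at 14 and 8 bases upstream. GAGGAA occurs in 23.3% of all 32851 promoter windows of the same 250 bases. These matches are letters in a window and do not show binding. Beside them, Spi1 had a log2 value of 0.37 and the receptor genes Csf3r and Csf2ra values of -0.08 and -0.11 per the authors' deposited table, and none of the 3 passed.

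Among the transcription factor genes, Gfi1 averaged 386 in the GFP+ and 650 in the Tomato+ fraction, per the authors' deposited table. The GFP+ mean was 59.5% of the Tomato+ mean, a log2 value of -0.75 with an adjusted p of 0.000766 per the authors' deposited table. By p-value Gfi1 ranked 387 among the 14268 rows. It no longer passed under a Bonferroni adjustment of the authors' DESeq p over all rows (adjusted p = 0.296) or when a log2 change of at least 1 was asked for. A transcript on the opposite strand overlaps Gfi1 in GENCODE. An antisense gene likewise overlaps Cebpa, and the protein-coding gene Gm20388 overlaps Irf8 on the same strand. Of 6 genes that overlap any of the members, 1 had a row under its GENCODE symbol, Hmgxb3, so the levels of the others could not be read.

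The upstream bases of Gfi1 are shown because it is the factor gene that changed. The search covered GAGGAA for PU.1, TTGCNNAA for C/EBP factors (N is any base) and AAATCA, a stretch of the GFI1 recognition sequence, on both strands. Capitals mark the match found, and build and direction are as above.

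Gfi1, chr5:107725806-107726055, minus strand: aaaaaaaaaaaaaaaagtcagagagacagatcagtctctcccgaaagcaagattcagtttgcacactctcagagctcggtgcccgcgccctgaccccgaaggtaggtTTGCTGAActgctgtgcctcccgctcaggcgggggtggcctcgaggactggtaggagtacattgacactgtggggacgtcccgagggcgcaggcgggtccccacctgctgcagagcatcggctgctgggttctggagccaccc

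The window holds 1 match to TTGCNNAA, 143 bases upstream of the start, a motif found in 9.56% of all windows. The window of a second annotated start of Gfi1, chr5:107724344-107724593, held no match to any of the 3 motifs. Of the 9 genes 5 had promoter rows, with 7 windows in all. Both Irf8 windows held 1 match to AAATCA each, at 175 and 226 bases upstream, a motif found in 12.4% of all windows, and the Cebpa window held no match. The Csf3r and Csf2ra windows shown above held no match to TTGCNNAA or AAATCA.

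Spi1 averaged 1059 in the GFP+ and 821 in the Tomato+ fraction, a log2 value of 0.37 with an adjusted p of 0.115 per the authors' deposited table. Cebpa averaged 289 in the GFP+ and 211 in the Tomato+ fraction, a log2 value of 0.45 with an adjusted p of 0.212 per the authors' deposited table. Irf8 averaged 257 in the GFP+ and 208 in the Tomato+ fraction, a log2 value of 0.30 with an adjusted p of 0.588 per the authors' deposited table. All 3 had the higher mean in GFP+, by 29.0%, 37.1% and 23.5%, and none passed the threshold. Spi1 and Cebpa had unadjusted p-values of 0.0116 and 0.0275, per the authors' deposited table. Among the 2067 rows with a mean within 1.5-fold of that of Spi1, 112 passed, with a median absolute log2 value of 0.57 and a smallest one of 0.02, so the size of a change did not by itself set the call.

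The ratios of these factors to Gfi1, itself lower in GFP+, were higher in GFP+. So were those of the receptor genes Csf1r, Csf3r, Csf2ra and Csf2rb, with Csf3r at 2.15 times the Gfi1 mean in GFP+ and 1.35 times in Tomato+. Only the ratio of Cebpe to Gfi1 was lower, at 0.0128 in GFP+ and 0.0344 in Tomato+. The Spi1 mean was 2.74 times the Gfi1 mean in GFP+ and 1.26 times in Tomato+, and the Cebpa mean was 0.748 of the Gfi1 mean in GFP+ and 0.324 in Tomato+. Irf8 and Gfi1, which favour opposite myeloid fates, stood at a ratio of 0.666 in GFP+ and 0.321 in Tomato+. The ratio of Cebpa to Spi1 was 0.273 in GFP+ and 0.257 in Tomato+. These are ratios of normalized counts and not of molecules, since the genes differ in length, and their differences between the fractions were not tested.

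Cebpe was the scarcest of the 9 genes. It averaged 4.94 in the GFP+ and 22.3 in the Tomato+ fraction, per the authors' deposited table. The GFP+ mean was 22.1% of the Tomato+ mean, a log2 value of -2.18, larger in size than that of the other 8 genes per the authors' deposited table. It did not pass, with an unadjusted p of 0.0404 and an adjusted p of 0.271 per the authors' deposited table. Of the 1209 rows with a mean within 1.5-fold of that of Cebpe 3.39% passed, and their median absolute log2 value was 2.71.

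**Figure D2:**
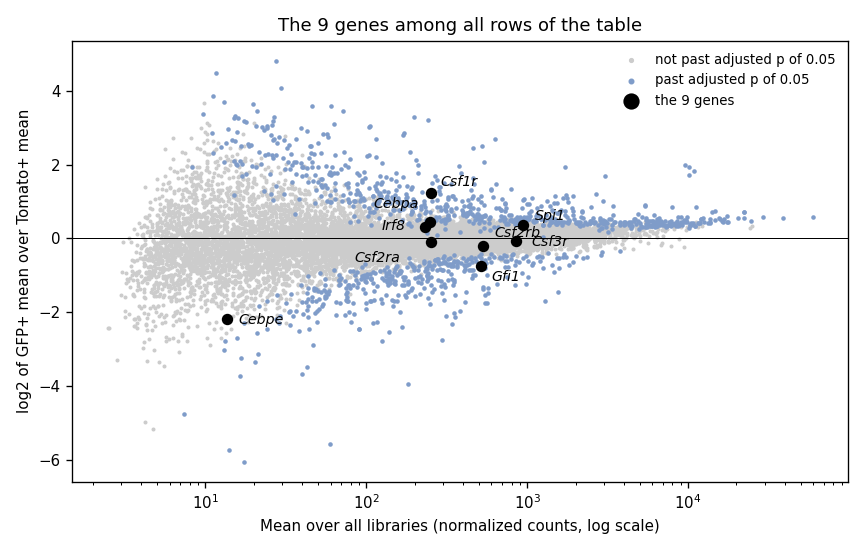
Difference between the fractions (vertical axis, log2 of the GFP+ mean over the Tomato+ mean) against the mean over all libraries (horizontal log axis, normalized counts) for all 14268 rows, with rows past the authors' adjusted p of 0.05 in blue and the 9 genes in black. Csf1r lies among the higher blue rows at 1.23 and Gfi1 among the lower ones at -0.75, while Cebpe, with a mean of 13.6, lies where rows scatter widely.

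Levels can be compared between genes only per length. Divided by the length in kilobases of the longest GENCODE coding transcript, Spi1 was the most abundant of the 9 genes, with 521 normalized counts per kilobase in GFP+ and 404 in Tomato+. Csf3r followed with 239 per kilobase in GFP+ and 253 in Tomato+, and Gfi1 with 135 in GFP+ and 227 in Tomato+. Csf2ra had 131 per kilobase in GFP+ and 141 in Tomato+, Cebpa 110 in GFP+ and 80.3 in Tomato+, and Csf2rb 101 in GFP+ and 116 in Tomato+.

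Irf8 had 90.4 normalized counts per kilobase in GFP+ and 73.2 in Tomato+, Csf1r 75.0 in GFP+ and 32.0 in Tomato+, and Cebpe 3.98 in GFP+ and 18.0 in Tomato+. The order of the per-kilobase levels was the same in both fractions except that Cebpa stood above Csf2rb in GFP+ and below it in Tomato+. Csf1r was the second lowest in both fractions. Without values per library, no neighbours in this order can be said to differ beyond their spread.

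By closeness of the log2 value among symbols with a mean within 1.5-fold that begin with a capital and a lower-case letter, as named mouse genes do, the 3 rows nearest to Csf1r of 2607 were Sorcs2, Mir703 and Cmah, with log2 values of 1.21, 1.25 and 1.14, per the authors' deposited table. The rows nearest to Gfi1 of 2666 were Cd63, Pygl and Scai, with log2 values of -0.74, -0.74 and -0.76, per the authors' deposited table. The likeness rests on 2 group means for each gene.

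None of the close relatives of the factor genes named here passed the threshold. The C/EBP genes Cebpb, Cebpd and Cebpg had log2 values of 0.19, 0.31 and 0.07, per the authors' deposited table. Gfi1b, the relative of Gfi1 that acts in erythroid and megakaryocyte cells, averaged 278 in the GFP+ and 353 in the Tomato+ fraction, with an adjusted p of 0.522 per the authors' deposited table. Whether Gfi1 differed from Gfi1b in its change was not tested. Among the interferon regulatory factors Irf1, Irf2 and Irf5 had log2 values of 0.27, -0.01 and 0.34, per the authors' deposited table. Irf4, a lymphoid and dendritic relative of Irf8, averaged 50.9 in the GFP+ and 20.0 in the Tomato+ fraction, with an adjusted p of 0.127 per the authors' deposited table.

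**Figure D3:**
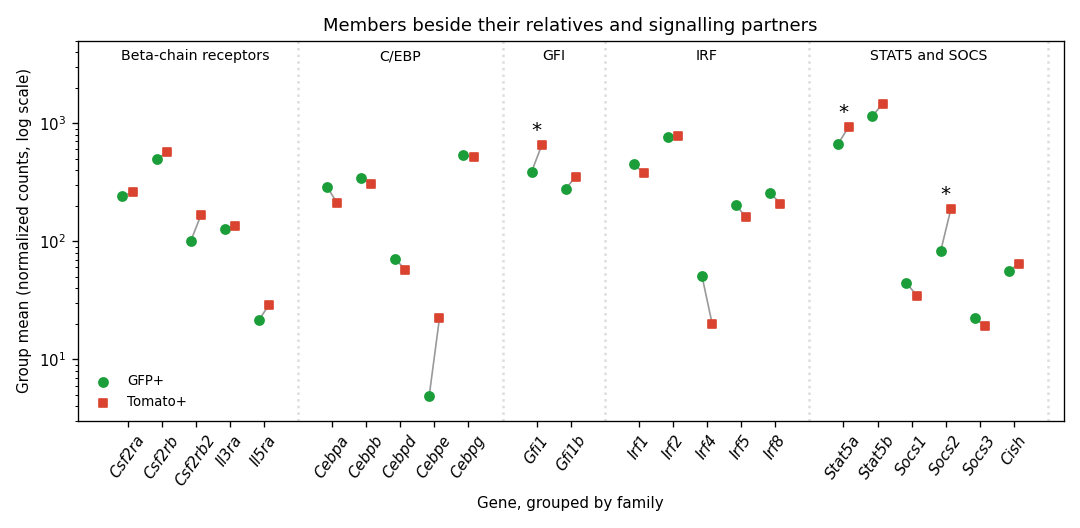
Mean normalized count (vertical log axis) in GFP+ (circles) and Tomato+ (squares) of the receptor chains, C/EBP, GFI and IRF genes and of the STAT5 and SOCS genes downstream of the receptors, with an asterisk where the authors' adjusted p was under 0.05. Gfi1, Stat5a and Socs2 are the genes marked, all 3 lower in GFP+, and Cebpe has the lowest GFP+ mean, 4.94.

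Of the 34 measured genes in a list of other myeloid factors and partners, 2 rose and 3 fell, with a median log2 value of 0.03. Ikzf1, which encodes the lymphoid regulator Ikaros, averaged 3791 in the GFP+ and 2646 in the Tomato+ fraction, per the authors' deposited table. Id2, an inhibitor of E proteins, averaged 114 in the GFP+ and 56.4 in the Tomato+ fraction, per the authors' deposited table. Jun, a partner of PU.1 in macrophage genes and an immediate early gene, fell by 2.34 in log2 units, per the authors' deposited table. Meis1 and Myb, factors of stem and progenitor cells, fell by 0.63 and 0.34 in log2 units, per the authors' deposited table, with adjusted p-values of 0.000894 and 0.0485. Runx1, Cbfb and Etv6, which act with the core myeloid factors, had log2 values of -0.11, 0.18 and -0.07, per the authors' deposited table.

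Downstream of the receptors, 0 of 33 signalling genes rose and 2 fell, with a median log2 value of -0.08. Over all rows 7.49% passed, 4.86% as higher and 2.64% as lower, so this count does not set the list apart. At an adjusted p under 0.01 the list had 1 gene that passed, and under a Bonferroni adjustment 0. Stat5a, a transcription factor activated by cytokine receptors, averaged 672 in the GFP+ and 927 in the Tomato+ fraction, with an adjusted p of 0.0293 per the authors' deposited table. Socs2, a feedback inhibitor induced by STAT5, averaged 81.9 in the GFP+ and 186 in the Tomato+ fraction, with an adjusted p of 0.00137 per the authors' deposited table. Jak2, the kinase bound to the beta chain, averaged 540 in the GFP+ and 777 in the Tomato+ fraction, with an adjusted p of 0.0767 per the authors' deposited table. The other SOCS family genes Socs1, Socs3 and Cish had log2 values of 0.36, 0.25 and -0.21, per the authors' deposited table.

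Of 14 related receptors 2 rose and 1 fell, with a median log2 value of -0.22. Il1r1, the interleukin-1 receptor, averaged 140 in the GFP+ and 46.9 in the Tomato+ fraction, per the authors' deposited table, and rose by 1.58 in log2 units. Flt3, by whose Cre history the fractions were split, rose by 1.22 in the same units per the authors' deposited table, beside the 1.23 of its relative Csf1r. Kit, of the same kinase class, had a log2 value of -0.28 and an adjusted p of 0.187, per the authors' deposited table. Il3ra, the alpha chain of the interleukin-3 receptor, had a log2 value of -0.08, per the authors' deposited table. Of 8 listed ligand genes 3 were measured (Csf1, Kitl and Flt3l), and none passed, with Flt3l and Csf1 nearest at adjusted p-values of 0.204 and 0.608, per the authors' deposited table.

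Granule genes, on which C/EBP factors and GFI1 are known to act, were counted by granule class. Of 17 primary granule and early granulocyte genes 1 rose and 3 fell, with a median log2 value of -0.14. Elane, Ms4a3 and Ctsg, made in early granulocyte precursors, fell by 2.45, 2.11 and 1.24 in log2 units, per the authors' deposited table. Plac8, which rose by 1.05 in log2 units per the authors' deposited table, is not a granule protein and is also made in lymphoid progenitors. The myeloperoxidase gene Mpo averaged 5679 in the GFP+ and 5275 in the Tomato+ fraction, per the authors' deposited table, and did not pass. Prtn3 (proteinase 3) had a log2 value of -0.23, per the authors' deposited table, and did not pass either.

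Of 15 secondary granule and neutrophil genes 4 rose and 0 fell, with a median log2 value of 0.61. Ltf (lactoferrin) averaged 86.0 in the GFP+ and 41.2 in the Tomato+ fraction, per the authors' deposited table. Ngp, a granule protein, averaged 79.9 in the GFP+ and 26.2 in the Tomato+ fraction, per the authors' deposited table. Chi3l3, a chitinase-like protein that macrophages also make, and S100a9, a calcium-binding protein of neutrophils, rose by 1.94 and 0.61 in log2 units, per the authors' deposited table. Of the 15 genes, 13 had the higher mean in GFP+ and 2 the lower one. Cebpe, the factor of this granule class, had the lower mean in GFP+ without passing the threshold. A relation between Cebpe and these genes was not tested. Itgam (CD11b) averaged 273 in the GFP+ and 266 in the Tomato+ fraction, per the authors' deposited table. The difference between both granule classes was not tested.

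Of 22 monocyte genes 5 rose, Csf1r among them, and 0 fell, and the median log2 value was 0.34 with Csf1r and without it. Mpeg1, a pore-forming protein of phagocytes, averaged 203 in the GFP+ and 63.7 in the Tomato+ fraction, and Ctss (cathepsin S) averaged 96.8 in the GFP+ and 25.2 in the Tomato+ fraction, per the authors' deposited table. Lgals3 (galectin-3) and Psap (prosaposin) rose by 1.93 and 0.35 in log2 units, per the authors' deposited table. Of the 17 monocyte genes that did not pass, 12 had a log2 value above 0 and 5 below, from -0.88 for Ly6c2 to 1.99 for Ly86 per the authors' deposited table.

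Most macrophage markers had the higher mean in GFP+, as had Csf1r, which macrophages express strongly. Of 18 measured macrophage markers 12 rose and 0 fell, and 17 had a log2 value above 0, with a median of 2.13. Their group means summed to 2013 normalized counts in GFP+ and 586 in Tomato+, none was at 0 in either fraction, and the lowest means were 13.5 in GFP+ and 3.49 in Tomato+. Adgre1 (Emr1 in the data), which encodes F4/80, averaged 128 in the GFP+ and 29.1 in the Tomato+ fraction, per the authors' deposited table. The part of these markers in the Csf1r result was not tested. In bulk RNA more cells of a type cannot be told apart from more RNA in each cell, here and for the granule genes.

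Markers of further cells also differed. Of 14 lymphoid progenitor markers 11 rose and 0 fell, and of 14 hepatoblast markers 11 rose and 0 fell. Of 12 erythroid markers 9 rose and 1 fell. The median log2 values of these lists were 3.02, 2.39 and 1.11, beside 2.13 for the macrophage markers, so higher means in GFP+ were not particular to macrophage genes. Where a mean of at least 50 was also asked for, 6 lymphoid progenitor, 5 hepatoblast and 9 macrophage markers rose, and the erythroid counts were the same. Of 6 dendritic cell markers Ccr7 was the 1 that rose, and of 7 mast cell, basophil and eosinophil markers 0 passed. Hdc and Cpa3, mast cell and basophil genes, came nearest, and Hdc averaged 36.4 in the GFP+ and 76.7 in the Tomato+ fraction and Cpa3 averaged 55.1 in the GFP+ and 82.8 in the Tomato+ fraction, per the authors' deposited table (adjusted p = 0.0752 and 0.264). The part of all these markers in the results for Csf1r and Gfi1 was not tested. Of 9 measured genes in a list of sort, related surface and lineage genes, Flt3 and Cd34 rose, and Slamf1, which encodes the CD150 of the sort, fell by 2.09 in log2 units with an adjusted p of 4.95e-08, per the authors' deposited table. Of the sort genes, Kit averaged 4087 in the GFP+ and 4950 in the Tomato+ fraction, Ly6a (Sca1) averaged 59.5 in the GFP+ and 70.1 in the Tomato+ fraction and Slamf1 averaged 27.9 in the GFP+ and 119 in the Tomato+ fraction, per the authors' deposited table.

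**Figure D4:**
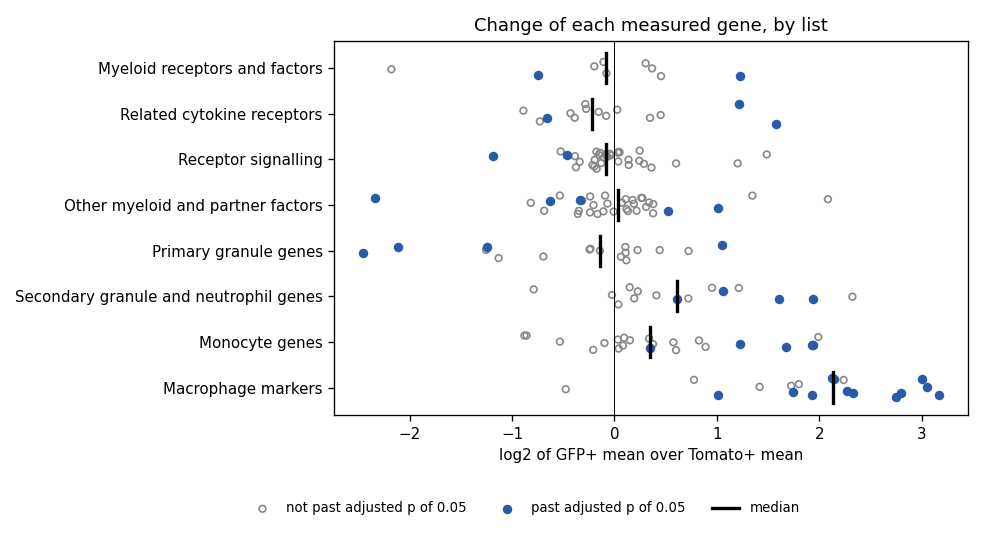
Log2 of the GFP+ mean over the Tomato+ mean (horizontal axis) for each measured gene of 8 lists (rows), filled where the authors' adjusted p was under 0.05, with a bar at each list's median. The 9 myeloid receptors and factors have a median of -0.08, as have the signalling genes, and the macrophage markers one of 2.13. Some genes such as Csf1r appear in more than 1 list. Lists not drawn include the lymphoid progenitor and hepatoblast markers, with medians of 3.02 and 2.39.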

How the data were processed

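RNA was measured in 4 GFP+ and 4 Tomato+ libraries prepared with the NEBNext Ultra kit from Trizol RNA, per the labels' protocols. Per the submitters' processing notes DESeq, bedtools, TopHat, TopHat2 2.0.11 and Bowtie2 2.2.1 were used on build mm9, without a role for each tool. Each row's mean signal, called baseMean, is a normalized count that the authors averaged over libraries, overall and per fraction, per the file headers. Also deposited were a fold change as a ratio, the log2 of it, and the authors' p-value before and after adjustment. The deposited ratio is Tomato+ over GFP+, and its sign was turned here. The adjusted p equalled a Benjamini-Hochberg adjustment across all 14268 rows within 5.28e-08. A repeated header line was dropped, and no group mean was 0. No test was run here, since only group means were at hand, and the authors' comparison was read as planned for that case. The p-values may measure only technical spread between libraries.

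The members and the 14 other gene lists were chosen with earlier results of these data known. Of 249 listed genes 219 had a row, 4 of them under an older RefSeq symbol (GRCm38.p6), and the row with the highest mean was read. Named genes were all members, list genes past the threshold, the 2 smallest p-values of lists with none, and the 3 nearest rows of each changed member. Other list genes in the text were chosen after their values were seen, and some listed genes are not reported here. Sequences are from RefSeq, and transcripts and overlaps from GENCODE M21, on another build than the data, whose rows carry no positions. The list summary was tested on simulated data. Python 3.11.15, numpy 2.4.6 and pandas 2.3.3 were used. Alternative thresholds, scalings and row choices are given in the closing section.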

Additional observations from a re-analysis of the deposited data

How the results depend on the processing

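No paired analysis was possible because only group means were at hand, and for the same reason leaving out single replicates was not run. Against 2 genes called of the 9, the count was 1 when a log2 change of at least 1 was asked for and 1 under a Bonferroni adjustment over all rows. Csf1r passed in both cases and Gfi1 in neither, with its log2 value of -0.75 and a Bonferroni p of 0.296. Both passed at an adjusted p under 0.01, and no other of the 9 genes passed at an adjusted p under 0.1. Scaling the fractions to equal totals lowers every log2 value by 0.16, and centring on rows whose mean is at least 50 lowers it by 0.03. None of the 9 genes changed direction under either. Reading the lowest row of each symbol says nothing of them, since each has 1 row. Of 210 other listed genes 69 were called, and 42 under Bonferroni. Over all rows 1069 were called, 699 at an adjusted p under 0.01, 492 with the minimum log2 change and 308 under Bonferroni. These differences follow from stricter criteria. Of 84 recomputed counts for single lists, 16 moved by over 1.5 times. Cebpe, at a GFP+ mean of 4.94, is the gene most limited by low counts.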
